A study of Homo sapiens with 6 samples.

Results

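Genes for the proteins of the mitochondrial ribosome were followed in A375 cells, a human melanoma cell line, with and without a stable knockdown of the kinase MAP4K5. Members were all genes whose platform symbol begins with MRPL or MRPS and a digit and that had a probe set assigned to 1 symbol, which gave 75 of the 18132 genes measured. Of these, 49 encode proteins of the large subunit and 25 proteins of the small subunit, and 1, MRPL20-AS1, is an antisense RNA. Each gene was read by its brightest probe set. MRPL23, MRPL53 and MRPS24, and the pseudogene MRPS31P5, were named only by probe sets that carry several symbols (5 in all) and were not analysed here.

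The knockdown group was 3 arrays of A375 cells with a stably expressed short hairpin RNA against MAP4K5, and the control group was 3 arrays of A375 cells. Both were grown without treatment in DMEM with fetal bovine serum and antibiotics, and total RNA extracted with Trizol was read on Affymetrix arrays. The 6 arrays are labelled biological replicates, but nothing says how the cultures were separated, so a p-value reflects only how far these arrays spread, which may be technical. The sources used here do not say if the control cells carried a vector or if the knockdown line is 1 clone. Because the knockdown line is set against A375 cells alone, loss of MAP4K5 cannot be told apart from off-target action of the hairpin or from selection of the line.

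The mitochondrial ribosome sits in the mitochondrial matrix and translates the few mRNAs of mitochondrial DNA, which encode core subunits of the respiratory chain and ATP synthase. Its rRNAs come from mitochondrial DNA, while all of its proteins are encoded in the nucleus, made in the cytosol and imported. Some are homologues of bacterial ribosomal proteins and others are found only in mitochondria. Symbols do not always show the subunit: MRPS30 and MRPS18A, named as small subunit proteins, lie in the large subunit.

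The knockdown was seen at MAP4K5 itself, with intensities of 19.7, 18.8 and 20.3 in the knockdown arrays, against 77.7, 78.1 and 76.3 in the control arrays (log2 fold change -1.98 ± 0.08 SE). Values are RMA intensities on a linear scale, so array number rather than depth limits the precision. RMA brings the arrays to 1 common distribution, so a change is relative to the other genes, and in bulk RNA fewer cells of a type and less RNA per cell cannot be told apart. Control replicate 2 stood apart. Over all genes, each read by its brightest probe set, its log2 values differed from the other controls with an SD of 0.32. From the knockdown arrays they differed with an SD of 0.27 to 0.28, while controls 1 and 3 differed by 0.20 and any 2 knockdown arrays by 0.17. Results are therefore given with and without it. Of 9 measured melanocyte and melanoma markers, 4 (MITF, SOX10, S100B and CSPG4) lay above the median gene, at an intensity of 8.68, while the pigment genes PMEL, MLANA, TYR and TYRP1 read 2.34 to 3.90. MITF was called higher, and SOX10 and S100B lower, in the knockdown arrays, where the 9 markers summed to 279 to 291, against 275 to 323 in control arrays. The means of all 4 fibroblast and all 3 endothelial markers lay below the median gene, as did 3 of 4 leukocyte markers (CD68 was above). Summed fibroblast markers read 15.5 to 16.9 in knockdown, against 17.9 to 19.0 in control arrays, and endothelial markers 13.9 to 16.6 in knockdown, against 12.4 to 13.6 in control arrays. Summed keratinocyte markers read 20.7 to 21.2 in knockdown, against 11.996 to 14.4 in control arrays, and only KRT14 of the 3 had a mean above the median gene. KRT14 read 12.9, 13.9 and 11.7 in knockdown, against 6.03, 7.51 and 4.82 in control arrays, and was called higher (log2 1.09 ± 0.16, limma adjusted p = 0.00687); its control values all lay below the median gene. The part of these markers in the results was not tested.

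All 75 member genes lay above the median gene, with mean intensities between 11.02 and 987. Knockdown minus control, 8 of the 75 rose and 0 fell by limma at an adjusted p under 0.05, a test that moderates each gene's variance and adjusts over all 18132 genes. The 8 were MRPL27, MRPS6, MRPS12, MRPL41, MRPL43, MRPS11, MRPL15 and MRPL49, with rises of 1.26-fold to 1.60-fold. Across all genes 7.83% were called, 3.7% higher and 4.13% lower. Among the 9066 genes above the median gene, where all members lie, 6.41% were called higher and 7.09% lower, beside 10.7% and 0% of members. A fit of those genes alone called 18% of them (9.02% higher and 8.99% lower), and in it 10 members were higher and 1, MRPL42, was lower. At an unadjusted p under 0.05, 24 members were higher and 4 lower (32.0% and 5.33%), against 12.4% and 11.1% of all genes and 19.8% and 17.6% of genes above the median gene. Of the members, 0 had a log2 fold change of 1 or more in either direction. The median log2 fold change of members was 0.12, against 0.01 over all genes and 0.02 over genes above the median gene, and 50 of the 75 values were above 0 (66.7%, against 52.7% of all genes). These counts and medians describe the members and were not tested as a list.

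The call count rests on all 6 arrays. It was 2 without control replicate 1, 22 without control replicate 2 and 1 without control replicate 3 or any 1 knockdown array, while calls over all genes ranged between 324 and 3732 in the same fits. MRPS6 alone of the 8 was called in all 6 of those fits. In the fit without control replicate 2, 22 members rose and 6 fell (29.3% and 8.0%), against 10.5% and 10.1% of all genes (20.6% in all) and 18.6% and 16.8% of genes above the median gene.

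**Figure D1:**
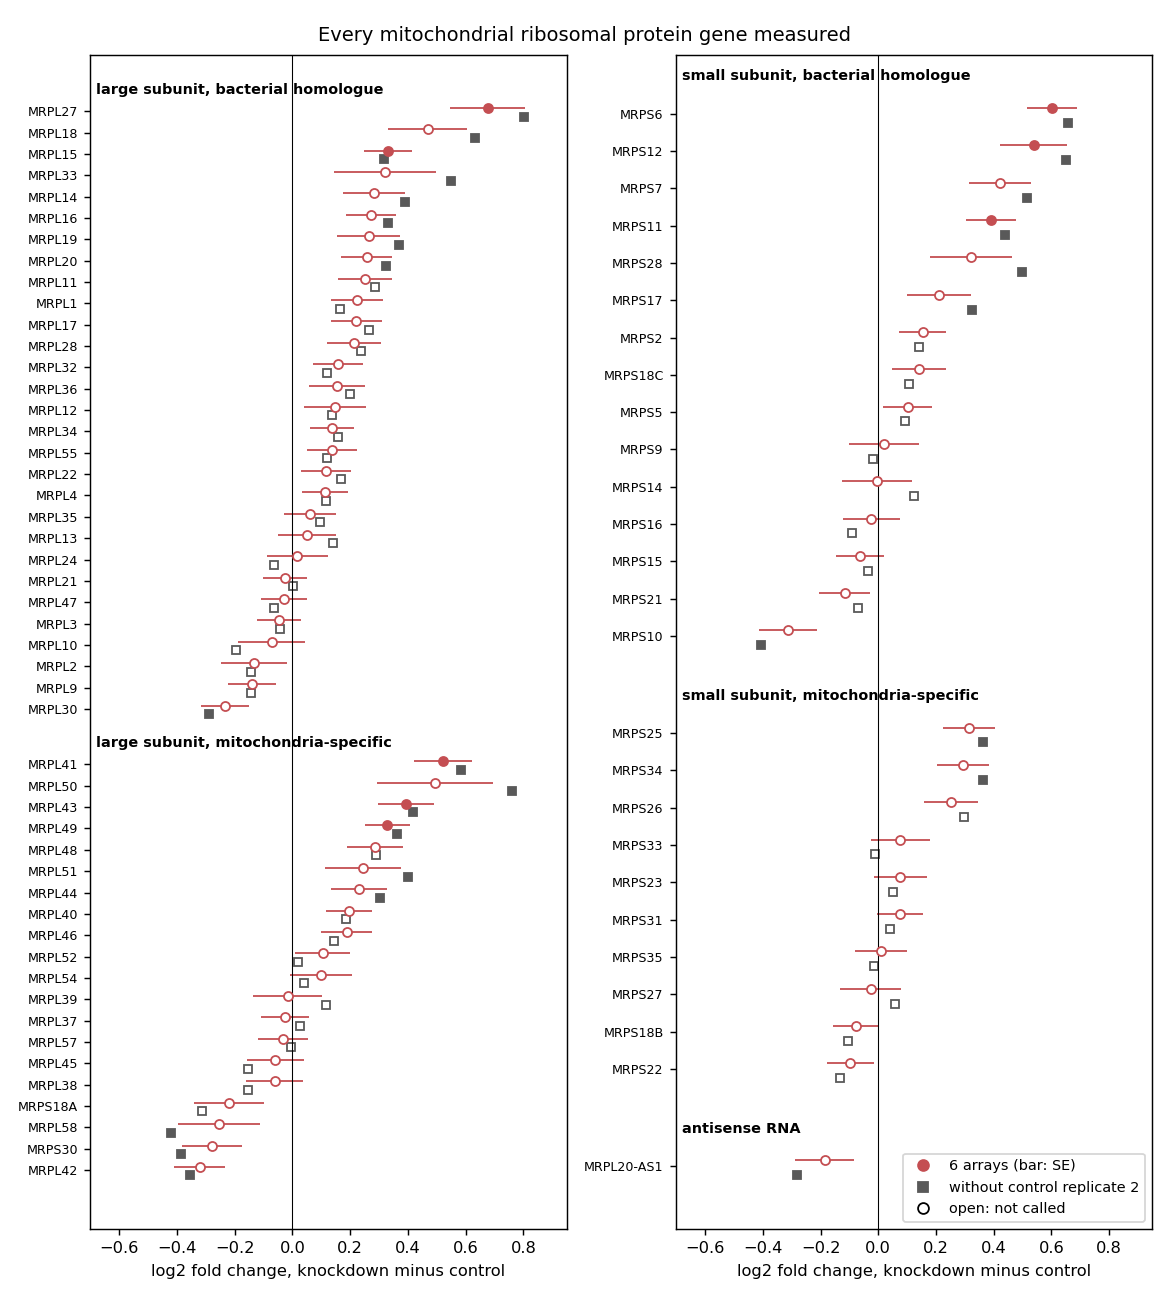
Log2 fold change (knockdown minus control, horizontal axis) of each of the 75 members, grouped by subunit and by listed class (bacterial homologue or found only in mitochondria). Circles with bars of 1 SE are the fit of 6 arrays, squares the fit without control replicate 2, and filled symbols are called; 8 circles are filled, all right of 0.

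Of the 8 risen genes, 3 belong to the small subunit, and all 3 are homologues of bacterial proteins. MRPS6, homologue of bacterial S6, read 149, 140.1 and 145 in knockdown, against 89.6, 103 and 94.1 in control arrays. The groups did not overlap and control replicate 2 was the highest control. The rise was 1.52-fold (log2 0.60 ± 0.09 SE, limma adjusted p = 0.00687), and it was 0.49 against control replicate 2 alone. MRPS12, homologue of the S12 protein of the bacterial decoding centre, read 202, 198 and 191 in knockdown, against 117, 159 and 134 in control arrays. All knockdown values lay above control replicate 2, which was again the highest control, and the log2 fold change was 0.54 ± 0.12 (adjusted p = 0.0297), or 0.31 against control replicate 2 alone. All 4 of its probe sets pointed up and 3 were called in a test per probe set. MRPS11, homologue of bacterial S11, read 189.7, 182 and 181 in knockdown, against 129, 150.1 and 143 in control arrays. Its groups did not overlap either, at a log2 fold change of 0.39 ± 0.09 (adjusted p = 0.0326), and 3 of its 6 probe sets were called, all upwards. Among these, 1 read 3.82 to 6.21, below the median gene. An uncalled probe set, also below the median gene, pointed down at -0.03.

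The large subunit gave the other 5. MRPL27, homologue of the bacterial L27 protein that reaches towards the peptidyl transferase centre, changed most of all members, reading 277, 261 and 270.3 in knockdown, against 139.6, 201 and 171 in control arrays. The control arrays spread over a wider range than the knockdown arrays, yet all lay lower. The log2 fold change was 0.68 ± 0.13 (adjusted p = 0.0205), or 0.42 against control replicate 2 alone. MRPL15, homologue of bacterial L15, read 287, 291 and 282 in knockdown, against 216, 223 and 245 in control arrays. It was the 1 gene of the 8 in which control replicate 2 lay below the mean of the other controls, and its log2 fold change was 0.33 ± 0.08 (adjusted p = 0.0476). The other MRPL15 probe set, below the median gene at 2.48 to 3.10, stood at 0.05, and neither was called in the test per probe set.

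MRPL41, MRPL43 and MRPL49 are large subunit proteins found only in mitochondria. MRPL41 read 154, 147 and 138 in knockdown, against 90.9, 111 and 105 in control arrays (log2 0.52 ± 0.10, adjusted p = 0.0206). It has 1 probe set, of a type (ID ending in _x_at) that may also bind other transcripts. The probe set used for MRPS11 is of the same type. MRPL43 read 196, 188 and 185 in knockdown, against 129, 149.5 and 157 in control arrays (0.39 ± 0.10, adjusted p = 0.0447). Only 1 of its 6 probe sets was called in the test per probe set, and 3 of the 6 pointed down, at -0.10, -0.05 and -0.002. The first 2 of these read 2.34 to 4.44, below the median gene. The 3 that pointed up stood at 0.30 to 0.42. The called probe set was not the probe set used for the gene, which had a limma adjusted p of 0.0635 in that test. MRPL49 read 141, 139 and 135 in knockdown, against 107, 115 and 109 in control arrays, and these narrow groups gave 0.33 ± 0.08 (adjusted p = 0.0410). Its 1 probe set was not called in the test per probe set (limma adjusted p = 0.0627). In all 8 genes the knockdown arrays lay above all 3 controls, as the plot of intensities by gene shows.

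**Figure D2:**
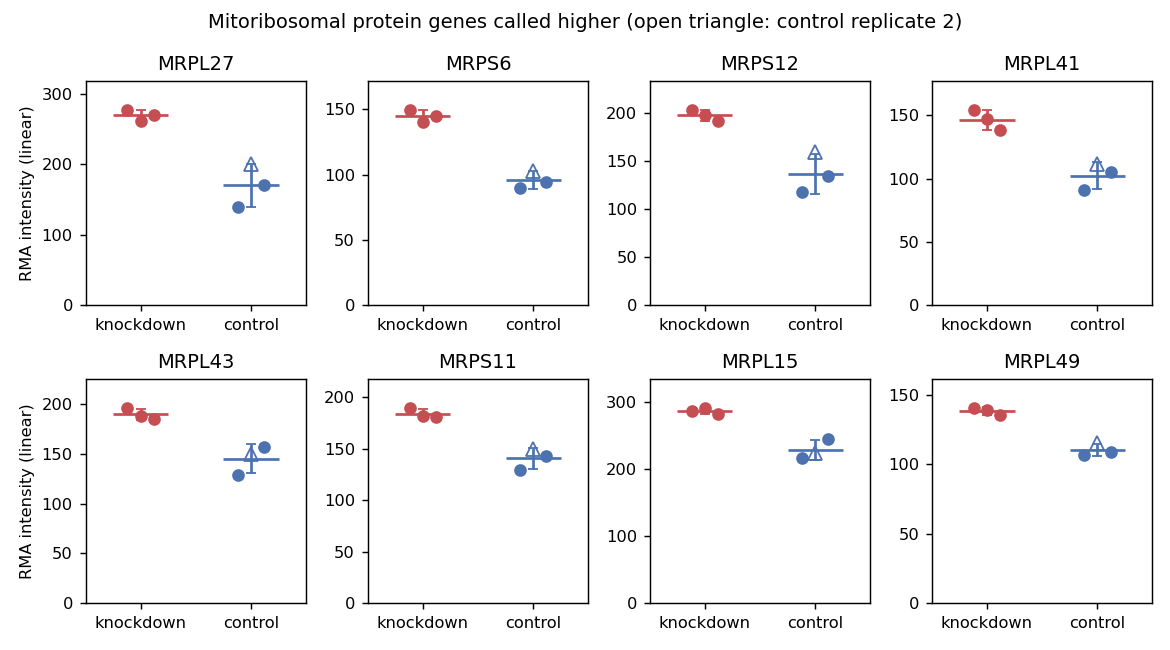
RMA intensity (linear, vertical axis from 0) of the 8 members called higher, knockdown left and control right, 1 point an array. Horizontal lines are means with bars of 1 SD (n = 3), the open triangle is control replicate 2, and no knockdown point falls to the level of a control point.

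Promoter windows are shown for the 7 of the 8 called members that have 1 in the table used, so that the start regions of the risen genes can be read side by side. MRPL15 had none. RefSeq windows of GRCh38.p14 (250 bases before the gene start to 50 after) were matched by symbol for 68 of the 75 members, with 84 windows in all. MRPL27 lies at chr17:50373135-50373434 on the minus strand, MRPS6 at chr21:34073328-34073627 on the plus strand, MRPS12 at chr19:38930694-38930993 on the plus strand (the first of 2 listed), MRPL41 at chr9:137551629-137551928 on the plus strand and MRPL43 at chr10:100987448-100987747 on the minus strand. MRPS11 lies at chr15:88467458-88467757 and MRPL49 at chr11:65121933-65122232 (the first of 2 listed), both on the plus strand. Capitals mark any match, on either strand, to CCGGAAG (bound by ETS factors), AAGATGGCG (part of the YY1 motif), GCGCNTGCG (part of that of NRF1) or CTACANNTC (part of that of ZNF143), and no marked motifs overlap each other in the windows printed.
MRPL27: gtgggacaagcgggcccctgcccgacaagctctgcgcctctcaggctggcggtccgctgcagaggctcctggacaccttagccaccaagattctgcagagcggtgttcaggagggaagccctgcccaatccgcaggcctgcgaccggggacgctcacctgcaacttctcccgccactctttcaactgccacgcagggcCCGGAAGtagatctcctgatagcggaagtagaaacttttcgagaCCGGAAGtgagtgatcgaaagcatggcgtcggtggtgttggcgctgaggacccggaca
MRPS6: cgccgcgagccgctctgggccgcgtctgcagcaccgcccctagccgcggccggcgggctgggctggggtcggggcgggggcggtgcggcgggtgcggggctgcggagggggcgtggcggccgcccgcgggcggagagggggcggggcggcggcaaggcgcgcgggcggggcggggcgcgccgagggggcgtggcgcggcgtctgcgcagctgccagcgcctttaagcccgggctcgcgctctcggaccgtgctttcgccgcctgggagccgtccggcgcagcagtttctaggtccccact
MRPS12: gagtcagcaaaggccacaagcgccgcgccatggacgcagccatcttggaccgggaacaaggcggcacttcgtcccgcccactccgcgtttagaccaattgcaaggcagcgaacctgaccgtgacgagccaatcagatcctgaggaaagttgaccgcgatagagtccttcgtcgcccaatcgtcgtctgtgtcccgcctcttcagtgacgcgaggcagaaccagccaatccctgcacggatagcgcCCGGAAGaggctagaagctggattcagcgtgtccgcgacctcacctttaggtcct
MRPL41: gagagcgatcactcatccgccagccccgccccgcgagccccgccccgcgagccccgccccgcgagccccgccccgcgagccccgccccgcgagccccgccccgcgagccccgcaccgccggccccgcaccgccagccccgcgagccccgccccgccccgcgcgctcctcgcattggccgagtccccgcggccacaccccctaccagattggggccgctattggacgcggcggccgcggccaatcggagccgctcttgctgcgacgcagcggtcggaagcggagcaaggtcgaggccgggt
MRPL43: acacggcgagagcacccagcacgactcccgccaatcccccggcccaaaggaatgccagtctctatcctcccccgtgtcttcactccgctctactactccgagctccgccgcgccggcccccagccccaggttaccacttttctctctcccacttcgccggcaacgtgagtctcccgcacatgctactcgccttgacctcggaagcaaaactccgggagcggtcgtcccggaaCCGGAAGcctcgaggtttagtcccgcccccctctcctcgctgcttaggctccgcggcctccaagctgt
MRPS11: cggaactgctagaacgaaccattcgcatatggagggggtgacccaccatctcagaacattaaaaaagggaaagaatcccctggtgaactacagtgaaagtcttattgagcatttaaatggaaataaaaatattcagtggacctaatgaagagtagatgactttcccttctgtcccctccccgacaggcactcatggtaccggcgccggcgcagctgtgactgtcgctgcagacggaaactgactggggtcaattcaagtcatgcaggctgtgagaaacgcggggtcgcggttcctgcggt
MRPL49: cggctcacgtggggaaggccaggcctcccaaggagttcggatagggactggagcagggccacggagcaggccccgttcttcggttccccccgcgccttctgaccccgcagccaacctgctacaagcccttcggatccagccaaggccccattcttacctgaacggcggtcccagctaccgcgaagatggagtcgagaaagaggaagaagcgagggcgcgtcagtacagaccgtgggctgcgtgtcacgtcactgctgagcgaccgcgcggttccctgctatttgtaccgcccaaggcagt

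MRPL27 held the ETS letters at 2 places, and MRPS12 and MRPL43 at 1 each. The windows printed for MRPS6, MRPL41, MRPS11 and MRPL49 held none of the 4 motifs, and they differed in base composition, with a GC content of 82.0% for MRPS6, 80.7% for MRPL41, 50.7% for MRPS11 and 64.3% for MRPL49. Of the 7 risen genes with a window, 3 (MRPL27, MRPL43 and MRPS12) held the ETS letters and 0 held those of YY1, NRF1 or ZNF143. Of all 68 members with a window, 30 held the ETS letters, 12 those of YY1, 12 those of NRF1 and 10 those of ZNF143. Over all members, the ETS letters stood in 33 of 84 windows (39.3%), against 10.3% of all 35116 windows in the table. The YY1 letters stood in 12 of 84 (14.3%, against 1.75% of all), the NRF1 letters in 13 (15.5%, against 7.47%) and the ZNF143 letters in 12 (14.3%, against 3.66%). All members lie above the median gene, and windows of other genes above it were not counted apart, so these shares compare unlike sets. A match describes the letters of a window and is neither a binding site nor a cause. The motifs were chosen with the values known.

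By subunit, the large subunit had 5 of 49 genes called higher and the small subunit 3 of 25, with medians of 0.14 and 0.08. Among large subunit proteins, those with a bacterial homologue had 2 of 29 called higher (median 0.15, 22 of 29 values above 0) and those found only in mitochondria 3 of 20 (median 0.10, 11 of 20 above 0). Among small subunit proteins, 3 of 15 with a bacterial homologue were called higher (median 0.14) and 0 of 10 found only in mitochondria (median 0.08). The last class spanned -0.10 for MRPS22 to 0.31 for MRPS25, and without control replicate 2 limma called 2 of its 10 higher, MRPS25 and MRPS34. At an unadjusted p under 0.05, 3 of these 10 were higher and 0 lower. The MRPS25 value comes from 1 of 5 probe sets, of which 2 pointed up and the lowest stood at -0.52. Classes were assigned by gene list, and no protein sequences were compared. MRPS18A and MRPS18B were listed as found only in mitochondria, while MRPS18C, whose symbol differs only in its last letter, was listed with a bacterial homologue. No difference between these classes was tested.

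The mean log2 level over all members, relative to the mean of the 6 arrays, was 0.05 to 0.07 in knockdown arrays and -0.13, -0.03 and -0.03 in control replicates 1, 2 and 3. Control replicate 1 was thus the lowest array and the other controls lay between it and the knockdown arrays. Each of the 4 classes had its 3 knockdown arrays above its 3 controls, and control replicate 1 was lowest in each. The same order was seen in some lists of genes outside the members but not in others. The 82 respiratory chain and ATP synthase subunits averaged 0.05 to 0.07 in knockdown arrays, against -0.15, 0.03 and -0.05 in control replicates 1, 2 and 3. The 16 mitochondrial aminoacyl-tRNA synthetases averaged 0.06 to 0.08 in knockdown arrays, against -0.15, -0.03 and -0.02 in control replicates 1, 2 and 3. The 4 mitoribosomal proteins with other symbols also had all knockdown arrays above all controls. In the 14 mitochondrial translation factors the arrays overlapped, at -0.01 to 0.01 in knockdown, against 0.02, -0.06 and 0.04 in control replicates 1, 2 and 3. Knockdown and control arrays also overlapped in the mitoribosome assembly factors, mitochondrial transcription and DNA maintenance genes, nuclear regulators and cytosolic ribosomal proteins. Groups of single genes did not overlap for 27 members with knockdown higher and 5 with knockdown lower (36.0% and 6.67%). Over all genes these shares were 14.9% and 13.2%, and over genes above the median gene 22.3% and 19.9%. They were 32.9% and 7.32% for the respiratory chain and ATP synthase subunits and 37.5% and 6.25% for the synthetases. For cytosolic ribosomal proteins they were 14.9% and 17.6%.

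**Figure D3:**
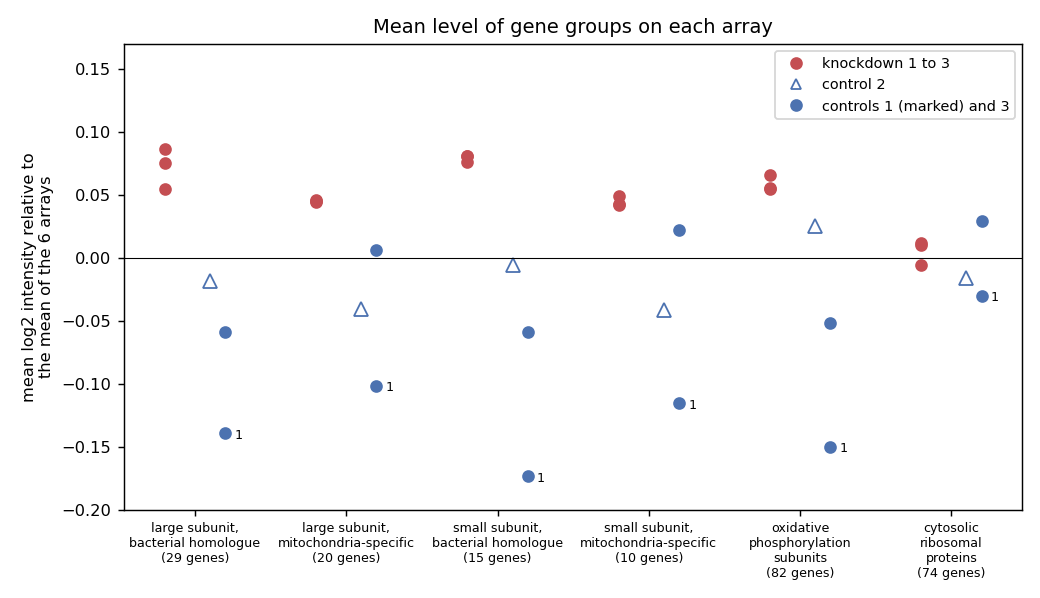
Mean log2 intensity of the genes of a group on each array, relative to that group's mean over the 6 arrays. Knockdown arrays lie above every control, and control replicate 1 is lowest, both in the 4 mitoribosomal classes and in the 82 oxidative phosphorylation subunits; in the 74 cytosolic ribosomal proteins the groups overlap.

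Other members were not called in the main fit of 6 arrays but were called when control replicate 2 was left out. Of 28 members called without control replicate 2, the 8 above were among them and 20 were not called in the main fit, 14 higher and 6 lower. In 14 of the 22 risen and 5 of the 6 fallen, control replicate 2 lay nearer to the knockdown mean than to the mean of controls 1 and 3. With all 3 controls these 20 missed the threshold in the main fit. Under other settings of the 6 arrays some were called, among them MRPS7 and MRPL42 with an intensity trend. With array weights MRPL50, MRPL18, MRPL33 and MRPS28 were among those called.

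MRPL50, a large subunit protein found only in mitochondria, showed this most. It read 74.0, 82.5 and 80.9 in knockdown, against 46.3, 81.4 and 47.0 in control replicates 1, 2 and 3. Control replicate 2 lay among the knockdown arrays, 0.80 on the log2 scale above the mean of the other controls. The log2 fold change was 0.49 ± 0.20 with all arrays (limma adjusted p = 0.184), 0.76 ± 0.08 without control replicate 2 (adjusted p = 0.000741) and -0.04 against that array alone. Its promoter window, shown because it carries motifs that the 7 risen genes with a window lacked, lies at chr9:101398569-101398868 on the minus strand and holds the YY1 letters once and the ZNF143 letters at 2 places. Both motifs are in few member genes (12 and 10 of 68), and no difference in motifs was tested.
MRPL50: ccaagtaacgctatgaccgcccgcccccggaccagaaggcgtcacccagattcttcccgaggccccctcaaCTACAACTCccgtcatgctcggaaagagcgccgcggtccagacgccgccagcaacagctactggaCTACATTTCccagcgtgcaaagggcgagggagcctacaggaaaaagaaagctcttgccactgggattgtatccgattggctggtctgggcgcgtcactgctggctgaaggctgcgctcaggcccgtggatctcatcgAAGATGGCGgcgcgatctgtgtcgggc

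MRPL33, homologue of bacterial L33, read 533, 557 and 543 in knockdown, against 382, 598 and 362 in control replicates 1, 2 and 3, so the highest of the 6 arrays was a control. Its log2 fold change was 0.32 ± 0.18 (adjusted p = 0.324), 0.55 without control replicate 2 and -0.14 against it alone. MRPS28, a small subunit protein, read 149, 153 and 153 in knockdown, against 108, 155 and 107 in the controls. MRPL51, a large subunit protein found only in mitochondria, read 1054, 1080.4 and 1089.65 in knockdown, against 818, 1127 and 810.0 in the controls. In both, control replicate 2 again lay above every knockdown array, and neither was called with all arrays. MRPS28 stood at 0.32 ± 0.14 with all arrays (limma adjusted p = 0.218), 0.50 without control replicate 2 (adjusted p = 0.00285) and -0.03 against that array alone. MRPL51 stood at 0.24 ± 0.13 with all arrays (limma adjusted p = 0.316), 0.40 without control replicate 2 (adjusted p = 0.00780) and -0.07 against that array alone.

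Other members lay between these patterns. MRPL18, homologue of bacterial L18, read 331, 319 and 348 in knockdown, against 211, 301 and 218 in control replicates 1, 2 and 3. Its groups did not overlap, but control replicate 2 lay 0.49 above the mean of the other controls, and the log2 fold change was 0.47 ± 0.14 (adjusted p = 0.0775), or 0.63 without it. MRPS7, homologue of bacterial S7, read 175, 158 and 159 in knockdown, against 108, 139 and 121 in the controls. Of the members not called it came nearest to the threshold, at 0.42 ± 0.11 (adjusted p = 0.0528), and passed without control replicate 2 at 0.52. MRPL14, a homologue of bacterial L14 on the face that meets the small subunit, stood at 0.28 ± 0.11, MRPS34 at 0.29 ± 0.09 and MRPL20 at 0.26 ± 0.09 with all arrays, and without control replicate 2 all 3 passed, at 0.39, 0.36 and 0.32.

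The 6 members that fell without control replicate 2 were MRPS10, MRPS30, MRPL58, MRPL42, MRPL30 and MRPL20-AS1. MRPL58, a large subunit protein that is also a peptidyl-tRNA hydrolase able to free stalled ribosomes, read 59.8, 59.6 and 58.6 in knockdown, against 74.8, 56.1 and 84.4 in control replicates 1, 2 and 3. Control replicate 2 was the lowest of the 6 arrays, and the log2 fold change was -0.25 ± 0.14 with all arrays (adjusted p = 0.333) and -0.42 without control replicate 2. MRPS10, homologue of bacterial S10, read 73.1, 76.9 and 74.3 in knockdown, against 98.2, 81.5 and 100.1 in the controls, with -0.31 ± 0.10 (adjusted p = 0.0983) and -0.41 without control replicate 2. MRPS30 stood at -0.28 ± 0.11 and -0.39. For MRPL42, found only in mitochondria, control replicate 2 lay close to the other controls: the gene read 103, 113 and 104 in knockdown, against 129, 127 and 144 in the controls, at -0.32 ± 0.09 (adjusted p = 0.0630). MRPL30 stood at -0.23 ± 0.08 and the antisense RNA MRPL20-AS1, which is among the 3 dimmest members, at -0.19 ± 0.10, against 0.26 for MRPL20 itself.

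**Figure D4:**
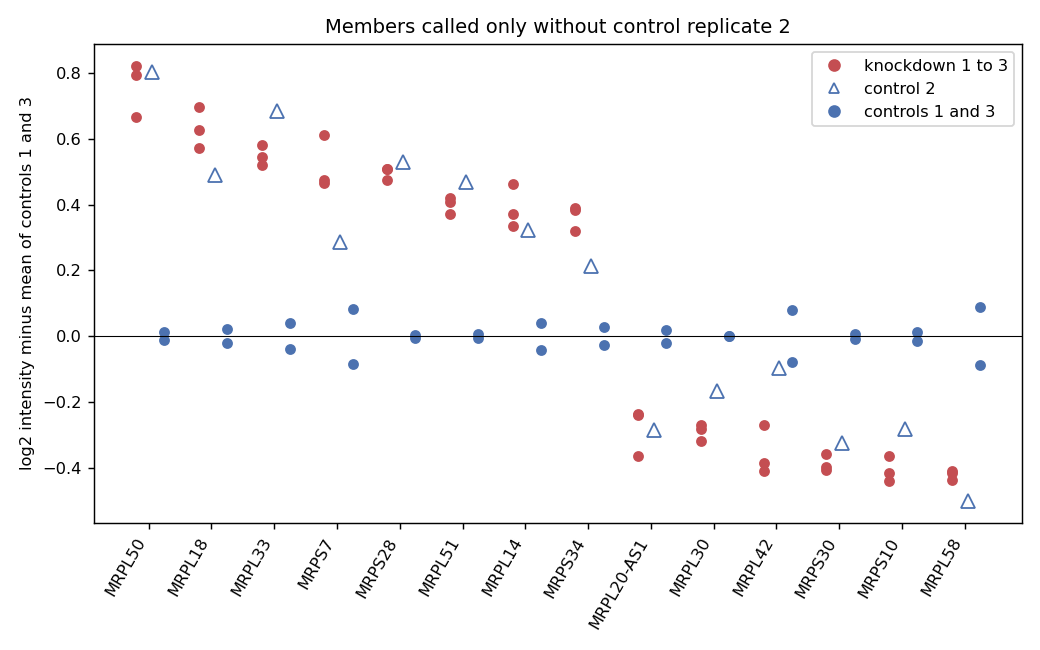
Log2 intensity relative to the mean of control replicates 1 and 3 for 14 members called without control replicate 2 but not in the main fit. They are the 8 risen members with the smallest p and all 6 fallen members. Open triangles (control replicate 2) sit with the knockdown points for MRPL50, MRPL33, MRPS28 and MRPL51, and just below the other controls for MRPL42.

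The remaining 47 members were called in neither fit, with log2 fold changes between -0.22 and 0.29. MRPL3, a homologue of bacterial L3 whose probe set was among the 3 brightest of the members, read 699, 712 and 676 in knockdown, against 740.4, 724 and 692 in control arrays, overlapping groups at a log2 fold change of -0.05 ± 0.08. The dim MRPL2 (8.95, 11.4 and 11.5 in knockdown, against 11.01, 11.4 and 12.3 in control) and MRPL38 (-0.06 ± 0.10) were not called either.

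Probe sets did not always point the same way. Of 47 members with more than 1 probe set, 33 had all of them on 1 side of 0 and 14 did not. Tested per probe set, 11 of the 166 member probe sets were called higher and 1 lower (6.63% and 0.602%), against 1.98% and 2.5% of all 44988 probe sets. The 1 that fell belongs to MRPL19, homologue of bacterial L19, which was chosen for mention after its values were seen. It read 30.3, 28.7 and 26.9 in knockdown, against 57.6, 64.9 and 54.1 in control arrays, a log2 fold change of -1.04 ± 0.10 (limma adjusted p = 0.00170 over probe sets). The MRPL19 probe set used for the gene read 113, 124 and 119 in knockdown, against 95.9, 114 and 87.9 in control arrays, at 0.26 ± 0.11, and averaging both gave a gene value of -0.39 (limma adjusted p = 0.0432). In MRPS16, also named after its values were seen, another probe set than the one used read 51.8, 48.97 and 57.2 in knockdown, against 35.1, 37.1 and 41.6 in control arrays, and was called higher (0.47 ± 0.10, adjusted p = 0.0389), while the one used stood at -0.02 and the third at -0.21.

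Of the members, 21 start within 1000 bases of a measured gene that runs the other way, in 20 separate pairs, by the RefSeq gene starts of GRCh38.p14. This comparison, and the distance, were chosen after members' values were seen. MRPL27 starts 45 bases from EME1, a DNA repair endonuclease subunit, which read 36.6, 35.1 and 34.5 in knockdown, against 38.4, 36.4 and 35.5 in control arrays (-0.05 ± 0.08). MRPS12 starts 181 bases from SARS2, a mitochondrial seryl-tRNA synthetase, at 0.07 ± 0.08 (adjusted p = 0.698). MRPL49 starts 49 bases from FAU, which encodes a cytosolic ribosomal protein, at 0.02 ± 0.07. None of these 3 neighbours was called by limma beside its risen member, while 7.83% of all genes were called. MRPS11 and MRPL46 are both members, 320 bases apart, and MRPL46 stood at 0.19 ± 0.09 (adjusted p = 0.240).

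MRPL18 and the chaperonin subunit TCP1, 210 bases apart, stood at 0.47 and 0.48, and TCP1 read 797, 798 and 719 in knockdown, against 474, 701 and 507 in control replicates 1, 2 and 3, so its highest control was also replicate 2. Of the 19 neighbours that are not members, 1 was called, beside 7.83% of all genes. This was PTCD2, a pentatricopeptide repeat protein, which fell by 0.54 ± 0.09 (limma adjusted p = 0.0118) beside MRPS27, at -0.03. Log2 fold changes had the same sign in 13 of the 20 pairs. Of single values, 66.7% of members and 52.7% of all genes lay above 0, and the agreement in sign was not tested.

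**Figure D5:**
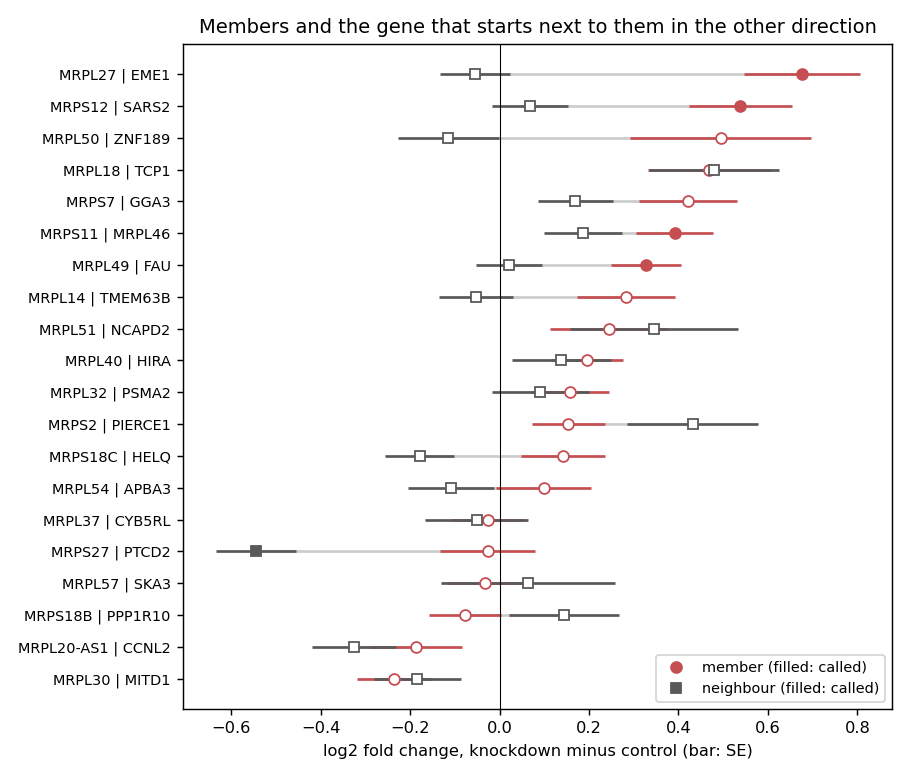
Log2 fold change (knockdown minus control, bars 1 SE) of members (circles) and of the neighbouring gene that starts within 1000 bases in the opposite direction (squares), 20 pairs; filled symbols are called. MRPL27, MRPS12 and MRPL49 are filled while EME1, SARS2 and FAU lie near 0.

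Genes that act with the mitochondrial ribosome were read from 8 lists, chosen with earlier results known, with names in each drawn by size of change or p. Across all genes, 3.7% were called higher and 4.13% lower. At an unadjusted p under 0.05 in limma these shares were 12.4% and 11.1%. Of 4 measured mitoribosomal proteins with other symbols, 0 were called by limma in either direction (1 higher and 0 lower at an unadjusted p under 0.05). CHCHD1, a small subunit protein, had the smallest p, at 0.29 ± 0.12 (adjusted p = 0.203). Of 23 factors that assemble the ribosome or modify its rRNA, 1 rose and 2 fell (median 0.09). MPV17L2, an inner membrane protein needed for assembly, read 22.0, 19.9 and 22.0 in knockdown, against 14.3, 15.6 and 14.9 in control arrays (0.51 ± 0.08, adjusted p = 0.0118). TFB1M, which dimethylates the rRNA of the small subunit, read 68.4, 72.6 and 70.1 in knockdown, against 116, 93.6 and 102 in control arrays, the largest fall among these factors at -0.56 ± 0.10 (adjusted p = 0.0146). METTL15, another methyltransferase for the same rRNA, fell by 0.44 ± 0.09 (adjusted p = 0.0254), with 1 of its 3 probe sets called. The uncalled ones read 2.41 to 3.39, below the median gene.

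Of 14 translation factors 0 were called by limma (4 higher and 1 lower at an unadjusted p under 0.05), with a median of -0.09, and the translational activator TACO1 had the smallest p, at 0.33 ± 0.10 (adjusted p = 0.0844). Among 16 mitochondrial aminoacyl-tRNA synthetases, 1 rose: CARS2, the cysteinyl-tRNA synthetase, read 119, 102 and 107 in knockdown, against 61.8, 70.7 and 75.5 in control arrays (0.66 ± 0.10, adjusted p = 0.0101). Its 3 probe sets were all called upwards, but 1 of them read 3.30 to 8.08, below the median gene. Of 10 genes for mitochondrial transcription and DNA maintenance 0 were called by limma (2 higher and 0 lower at an unadjusted p under 0.05), with the elongation factor TEFM at 0.22 ± 0.07 (adjusted p = 0.114). Of 8 nuclear regulators, 0 rose and 1, MYC, fell, while the list median was 0.19 and 6 of 8 values lay above 0. At an unadjusted p under 0.05 in limma, 3 of the 8 were higher and 1 lower. MYC read 53.8, 54.6 and 60.8 in knockdown, against 129.96, 69.6 and 119 in control replicates 1, 2 and 3 (-0.87 ± 0.21, limma adjusted p = 0.0447). Its value against control replicate 2 alone was -0.31, and its 1 probe set was not called in the test per probe set (limma adjusted p = 0.0563).

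For the respiratory chain and ATP synthase, 4 of 82 subunit genes were called higher and 0 lower (median 0.09). Without control replicate 2 these counts were 23 and 2 (28.0% and 2.44%). The shares over all genes were then 10.5% and 10.1%, and over genes above the median gene 18.6% and 16.8%. COX7B2, a paralogue of a cytochrome oxidase subunit, rose by 1.04 ± 0.16 and NDUFA2, a complex I subunit, by 0.46 ± 0.10, with the ATP synthase subunit ATP5PF (0.46 ± 0.12) and the complex I subunit NDUFB7 (0.43 ± 0.11) as the others, named after their values were seen. Of 74 cytosolic ribosomal protein genes, 1 rose and 1 fell (median -0.02), and 4 rose and 1 fell without control replicate 2. RPL27A rose by 0.81 ± 0.11 at a probe set that read 3.61 to 7.26 in all arrays, below the median gene. RPL22L1, a paralogue of RPL22, fell by 0.45 ± 0.08. Its other probe set pointed up at 0.37 but read 3.55 to 5.18, below the median gene. The shares called higher with all arrays were 10.7% of members, 4.88% of respiratory chain and ATP synthase subunits and 1.35% of cytosolic ribosomal proteins. They were 3.7% of all genes and 6.41% of genes above the median gene. Other measures set members and respiratory chain and ATP synthase subunits less far apart. Without control replicate 2, 29.3% and 28.0% were called higher, against 5.41% of cytosolic ribosomal proteins. Values above 0 made up 66.7% of members, 76.8% of these subunits, 81.25% of mitochondrial aminoacyl-tRNA synthetases and 44.6% of cytosolic ribosomal proteins. The tilt upwards was therefore not seen in members alone, and no difference between these sets was tested.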

How the data were processed

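RNA of 6 samples of A375 cells labelled biological replicates, 3 with MAP4K5 knockdown and 3 controls, was measured on Affymetrix arrays. The deposited values are linear intensities per probe set, made by the authors with RMA, per the submitters' processing notes; no version is named there. Of 49293 probe sets, the 44988 with 1 gene symbol in GEO's platform annotation were used, 1832 carried several symbols and 2473 had none. Each of 18132 genes was read by the probe set with the highest mean log2 intensity. The log2 intensities were fitted with limma 3.58.1 in R 4.3.3 (lmFit and eBayes, no covariates), knockdown minus control, and p-values were adjusted by Benjamini-Hochberg across the 18132 genes, with calls at an adjusted p under 0.05. The fit was tested on simulated data with 200 genes changed by 1 on the log2 scale, of which 85% were recovered, with 6 false calls. That simulation held no array set apart like control replicate 2. It did not cover changes of the size seen in members, at most 0.68. Python 3.11.15 with pandas 2.3.3 made the summaries and promoter counts.

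Members, gene lists and the rule for named genes were chosen with earlier results of these data known. Named were all called members, the antisense RNA, and the 3 brightest and 3 dimmest members. The 3 members with the largest departure of control replicate 2 were also named. Of members called without control replicate 2 but not in the main fit, those with the smallest p were named (up to 8 each way). From each other list, up to 2 called genes each way or the gene with the smallest p were named. Alternatives changed the probe set rule, low-value filter, normalization, variance model, array weights, replicate block, pseudocount, threshold and arrays used. No scan batch was given in the sources used here. Intensities carry no read depth, and precision is set by how many arrays there are.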

Additional observations from a re-analysis of the deposited data

How the results depend on the processing

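The median log2 fold change of members stayed within the spread of arrays in all 17 alternatives run. The count of 8 members called higher became 19 with array weights and 0 in limma's treat test against a log2 change of 0.5. It became 4 when probe sets ending in _x_at or _s_at were left out, which left 72 members with a value. In that setting MRPS7 was added, MRPL27, MRPS6 and MRPS12 were kept, and MRPL41 had no value. There MRPL15, MRPL43, MRPL49 and MRPS11 were no longer called (limma adjusted p = 0.0521 to 0.0590). Leaving out 1 array gave 1 to 22 members higher and 0 to 6 lower. The count of 0 called lower became 1 with an intensity trend, with log2(intensity + 8) and with the lowest 50% of genes left out (MRPL42 each time), 4 with array weights and 2 with the mean of all probe sets (MRPL42 and MRPL19). Calls over all genes, 1420, became 3103 with array weights, 70 in the treat test, and 324 to 3732 with 1 array left out. MRPL38 turned to 0.0012 with the mean of all probe sets, where MRPL15, MRPL43 and MRPS11 were no longer called. Causes of these shifts were not tested. Shifting arrays to a common median kept 8 calls and gave a median over all genes of 0.03, against 0.01.

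Same-numbered knockdown and control arrays did not deviate together (correlations of deviations -0.08, 0.02 and 0.06), so the numbers were not taken to pair them. With a replicate block, 4 members were called higher (MRPL27, MRPS6, MRPS12 and MRPL41), 0 lower and 1188 genes in all.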
